A study of Mus musculus with 6 samples.

Results

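The carriers of sugars, monocarboxylates and organic ions studied here are the members of 5 solute carrier families, Slc2a, Slc5a, Slc13a, Slc16a and Slc22a. They were found by gene symbol: each row of the expression table whose array annotation gave exactly 1 symbol, made of a family prefix and its member number, was taken. Of 67 symbols that start this way, 66 were kept. The symbol left out was Slc2a4rg-ps, a pseudogene named after a regulator of Slc2a4 and not a carrier, which differed by -0.03 on the log2 scale. The 66 carrier genes, which include Slc22a13b, annotated as a transcribed pseudogene in RefSeq, stand among 19938 genes tested. Expression was measured by array in mucosa scraped from the jejunum of C57/BL mice aged 8 to 10 weeks and kept on regular chow. The ISR2 group, with 3 arrays, is a transgenic line in which SREBP2, the transcription factor of cholesterol synthesis, is overactive in the intestine. The other group, also with 3 arrays, is their wild type littermates. The sources used here do not give the promoter, form or founder line of the transgene, and the labels do not say whether each array stands for 1 mouse or for pooled mice. The p-values therefore measure the spread between these samples, which may be partly technical.

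Slc2a genes encode the GLUT proteins, most of which let hexoses or urate pass down their gradient. Slc5a genes encode carriers that use the sodium gradient to pull in sugars, inositol, vitamins, iodide or short organic acids. In the textbook scheme of the small intestine, SGLT1 (Slc5a1) and GLUT5 (Slc2a5) take up glucose and fructose at the brush border and GLUT2 (Slc2a2) passes both to the blood. Slc13a carriers take up citrate, succinate or sulphate with sodium. Slc16a genes encode the MCT family, which carries lactate, pyruvate, ketone bodies, thyroid hormone or aromatic amino acids. Slc22a genes encode carriers of organic cations, carnitine and organic anions, many of them best known from kidney and liver.

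All values are log2 expression values made by the RMA method, so a difference of 1 is a 2-fold change. A gene passed when its p-value in limma, adjusted by Benjamini-Hochberg over all 19938 genes, was under 0.05. Each SE printed with a difference, and each interval, is the moderated one from limma. It combines the variance of the gene's own arrays with that of all genes tested. It can therefore be smaller or larger than the SDs of the 3 arrays in each group would give. Srebf2, which encodes SREBP2, read 9.04, 9.15 and 9.50 in wild type and 11.02, 10.85 and 11.16 in ISR2, higher in each ISR2 array, as the labels have it. Array medians ran from 6.04 to 6.19, and Pearson's r across genes, which are not independent replicates, was 0.978 to 0.991 within a group and 0.970 to 0.982 between groups. Having 3 arrays a group limits how precise each difference can be. The tissue label was checked on 10 enterocyte markers, whose mean was 13.02 to 13.07 in wild type and 12.67 to 12.89 in ISR2. The enterocyte mean was thus lower in each ISR2 array than in any wild type array, and 1 of the 10 markers, Alpi, fell. Of 6 goblet cell markers 1, Spink4, fell. Of 6 macrophage and dendritic cell markers 1 rose, Cd14, while the other members had negative differences that did not pass (median of the list -0.27). Of 8 markers of T cells and intraepithelial lymphocytes 5 fell, and the mean of that list was 7.67 to 8.20 in wild type and 6.66 to 7.31 in ISR2. No marker passed in the lists of Paneth, enteroendocrine, tuft, B and plasma, stromal, endothelial, pancreatic acinar and red blood cells. Their median differences ran from -0.55 (Paneth cell) and -0.42 (B and plasma cell) to 0.36 (endothelial cell). In bulk mucosa, fewer cells of a type and less RNA per cell cannot be told apart. The part of these cell markers in the differences of the carriers was not tested.

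Of the 66 carriers 8 passed, which is 12.1% against 3.02% of all genes tested. The carriers were chosen with earlier results of these data known, so such shares are a description and not a test. The 4 carriers that rose were Slc2a6, Slc16a13, Slc16a11 and Slc22a14, and the 4 that fell were Slc5a8, Slc2a7, Slc5a11 and Slc16a6. Each direction thus held 6.06% of the carriers, against 1.79% of all genes that rose and 1.23% that fell. The main absorptive carriers of glucose and fructose, Slc5a1, Slc2a2 and Slc2a5, were not among them. The 3 ISR2 arrays lay entirely on 1 side of the 3 wild type arrays for 20 carriers, or 30.3%, against 19.8% of all genes. The median log2 difference was -0.11 over the 66 carriers and -0.06 over all genes, and 46 carriers had a negative difference. For 54 of the 66, or 81.8%, the difference was under 0.5 in size, as it was for 93.8% of all genes. The count of rises was 4 under every alternative setting except array weights, which gave 5. The count of falls was 2 without wild type replicate 1, without ISR2 replicate 1 or with every row of the table tested, and 7 with array weights.

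**Figure D1:**
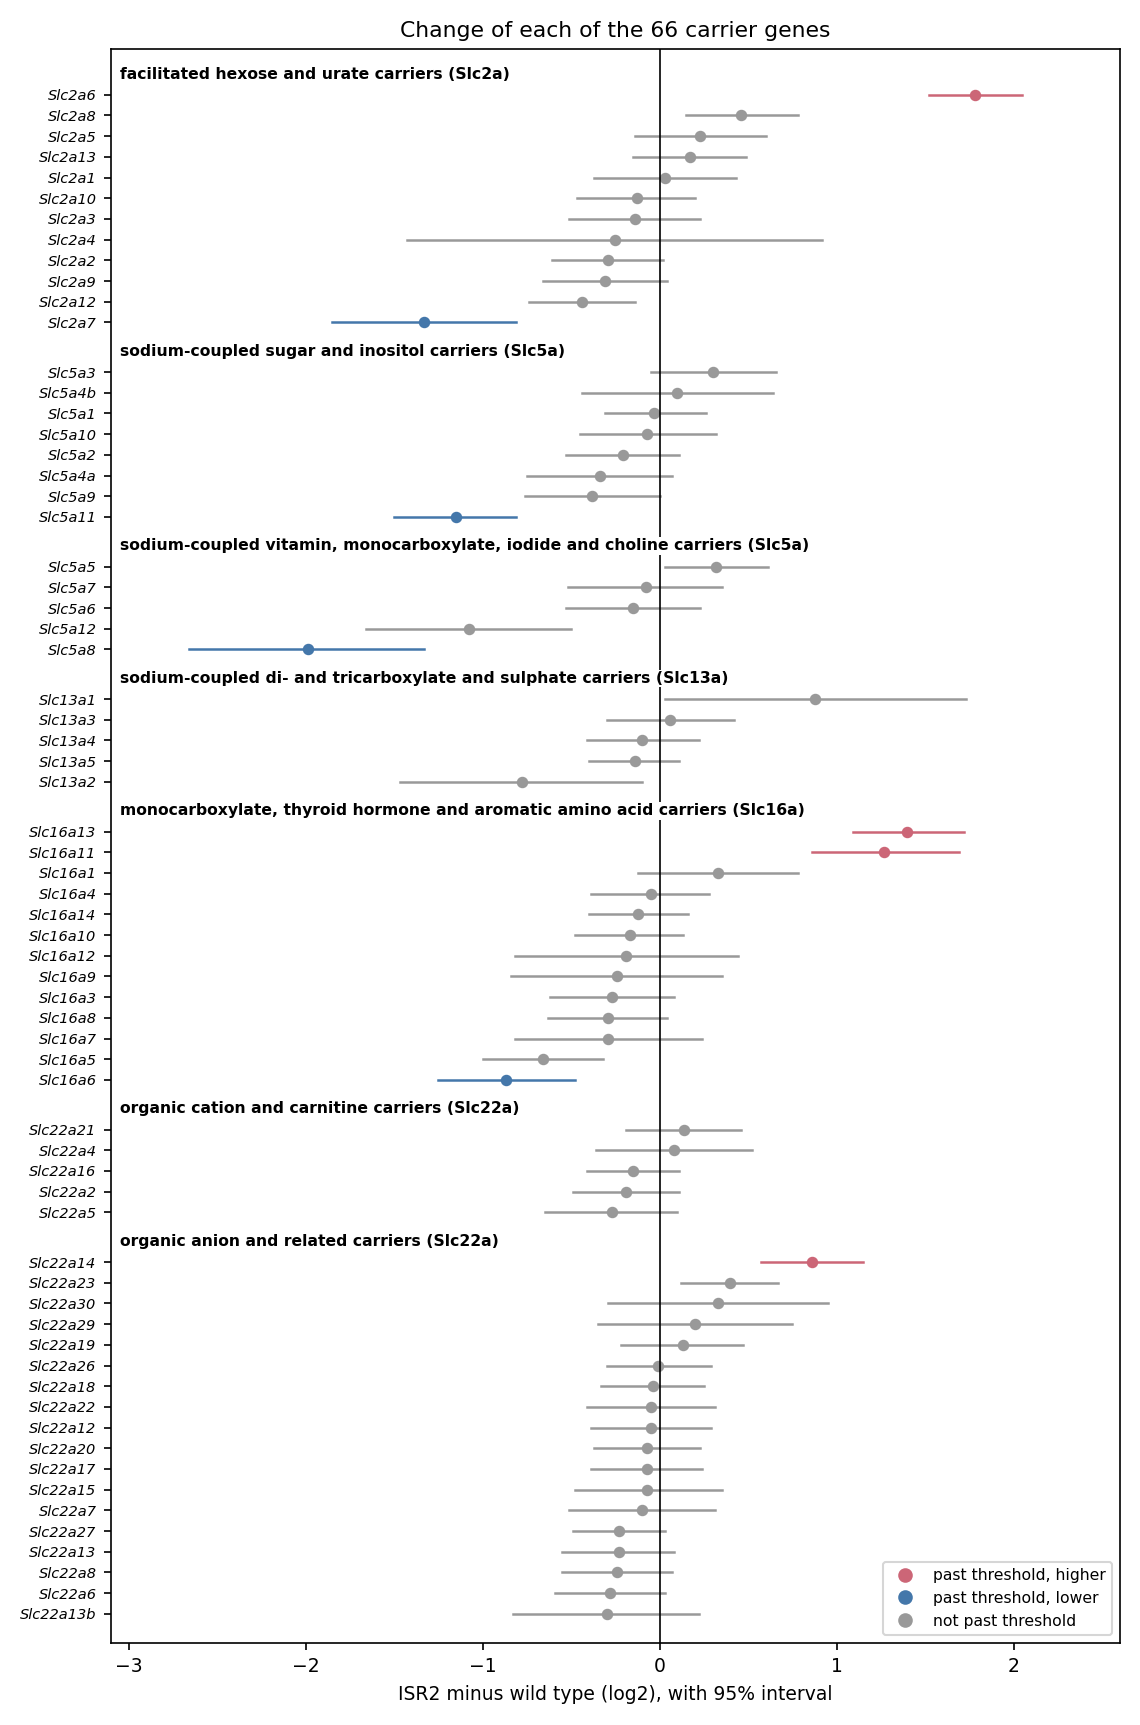
Difference between ISR2 and wild type for each of the 66 carrier genes, in log2 units, with the 95% interval from limma as a line and the genes grouped by role. The 4 rises (red) and 4 falls (blue) lie in 5 of the 7 groups, and most other carriers lie within 0.5 of 0.

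Promoter sequences are shown because SREBP2 is a DNA-binding factor. They are given for 3 of the carriers that rose and for Slc5a8, the carrier with the largest fall. Of the 8 carriers that passed, 6 had a promoter sequence, and those of Slc5a11 and Slc2a7 are not printed. Each line gives the 250 bases before the RefSeq start of the gene (build GRCm38.p6), 5′ to 3′ on the strand of the gene, with matches to any searched motif in capitals. The motifs, searched on both strands, were TCACNCCAC (a form of the sterol regulatory element bound by SREBP), CACGTG (an E-box), CCAAT (bound by NF-Y) and GGGCGG (bound by Sp1 and related factors). Promoter sequences of Slc16a13 and Slc16a6 were not in the set used here.
Slc2a6, chr2:27027999-27028248, - strand: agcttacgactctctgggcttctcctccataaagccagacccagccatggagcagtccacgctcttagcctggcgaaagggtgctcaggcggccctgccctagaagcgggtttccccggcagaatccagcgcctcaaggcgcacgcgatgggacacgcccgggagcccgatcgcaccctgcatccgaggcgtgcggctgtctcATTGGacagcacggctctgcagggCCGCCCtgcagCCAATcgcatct
Slc16a11, chr11:70213660-70213909, + strand: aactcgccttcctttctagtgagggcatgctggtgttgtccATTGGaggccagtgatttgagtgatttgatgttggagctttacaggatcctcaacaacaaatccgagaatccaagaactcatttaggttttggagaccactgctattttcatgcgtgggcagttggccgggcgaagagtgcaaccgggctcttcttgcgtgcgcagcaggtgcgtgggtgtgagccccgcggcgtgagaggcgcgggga
Slc22a14, chr9:119190396-119190645, - strand: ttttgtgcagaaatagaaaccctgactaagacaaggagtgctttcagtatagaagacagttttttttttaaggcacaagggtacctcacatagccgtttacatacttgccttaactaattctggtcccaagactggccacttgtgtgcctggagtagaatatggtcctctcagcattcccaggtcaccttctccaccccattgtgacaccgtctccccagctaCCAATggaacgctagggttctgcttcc
Slc5a8, chr10:88885742-88885991, + strand: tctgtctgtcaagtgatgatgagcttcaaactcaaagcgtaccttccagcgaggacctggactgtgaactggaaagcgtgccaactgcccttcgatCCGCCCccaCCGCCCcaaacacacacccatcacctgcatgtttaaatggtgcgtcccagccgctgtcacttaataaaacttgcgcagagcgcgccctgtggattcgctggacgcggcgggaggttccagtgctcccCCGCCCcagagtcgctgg

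The window of Slc2a6 held a CCAAT match on each strand, with first bases at -47 (opposite strand) and -12, and a GGGCGG match on the opposite strand at -23. Slc16a11 held CCAAT at -209 on the opposite strand, and Slc22a14 held it at -27 on the strand of the gene. Slc5a8 held GGGCGG at -154, -145 and -18, each on the opposite strand. CCAAT was present in 33.8% and GGGCGG in 32.7% of all 32851 promoter windows of this length, so both are common. TCACNCCAC was in 1.05% of all windows and CACGTG in 6.02%, and neither occurred in the 4 windows printed. Among the 53 carriers with a window, TCACNCCAC was found for 1, Slc2a8, and CACGTG for 6, including Slc5a1 and Slc16a1. A match is a run of letters, not evidence of binding, and a window without these letters says nothing about the factor.

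Among the facilitated hexose carriers 1 of 12 rose and 1 fell, and both of these GLUT genes are lesser known relatives of the absorptive carriers. Slc2a6 encodes GLUT6, a hexose carrier found mainly on membranes inside the cell. It read 6.64, 6.69 and 6.74 in wild type and 8.52, 8.47 and 8.42 in ISR2. The groups were far apart, and the SD within each was 0.05. The rise was 1.78 ± 0.12 on the log2 scale (moderated SE, n = 3 per group), or 3.45-fold, with an adjusted p of 3.63e-05. It was the largest rise among the carriers, and between 1.76 and 1.81 with any array left out.

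Slc2a7 encodes GLUT7, a close relative of the fructose carrier GLUT5 that is expressed in the small intestine. Wild type arrays read 10.09, 9.85 and 9.10 and ISR2 arrays 8.37, 8.38 and 8.29. The ISR2 arrays were tightly grouped, while wild type replicate 3 lay well below the other two. The fall was 2.51-fold (log2 -1.33 ± 0.23, SE; adjusted p = 0.0144). The call ended in 4 of the 6 fits that left out 1 array, namely replicate 1 or 2 of wild type and 1 or 3 of ISR2 (adjusted p up to 0.073), as did testing every row (0.066), although the difference stayed between -1.62 and -1.12.

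The 10 other GLUT genes did not pass. Slc2a2, the basolateral GLUT2, read 11.41, 11.35 and 11.25 in wild type and 10.85, 11.24 and 11.05 in ISR2. Every ISR2 array was below every wild type array, but only just, and the difference of -0.29 had a 95% interval of -0.61 to 0.02 (adjusted p = 0.424). Slc2a5, the fructose carrier GLUT5, read 9.83, 9.89 and 9.36 in wild type and 9.84, 10.04 and 9.89 in ISR2. The groups overlapped, with wild type replicate 3 as the low array, and the difference was 0.23 (interval -0.14 to 0.60). Slc2a8, a GLUT of intracellular membranes, was higher in each ISR2 array (7.33, 7.07 and 7.38) than in any wild type array (6.95, 6.68 and 6.78), at 0.46 ± 0.14 (SE), without passing (adjusted p = 0.164). Slc2a12, encoding GLUT12, was lower in each ISR2 array, at -0.44 ± 0.13 (SE; adjusted p = 0.153), and its mean lay below the lower quartile of all genes (5.20). With array weights both Slc2a8 and Slc2a12 passed (adjusted p = 0.0237 and 0.0211). The urate carrier gene Slc2a9 differed by -0.31 and Slc2a1, the widespread GLUT1, by 0.03, a sign that turned in 4 of the 6 fits that left out 1 array.

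**Figure D2:**
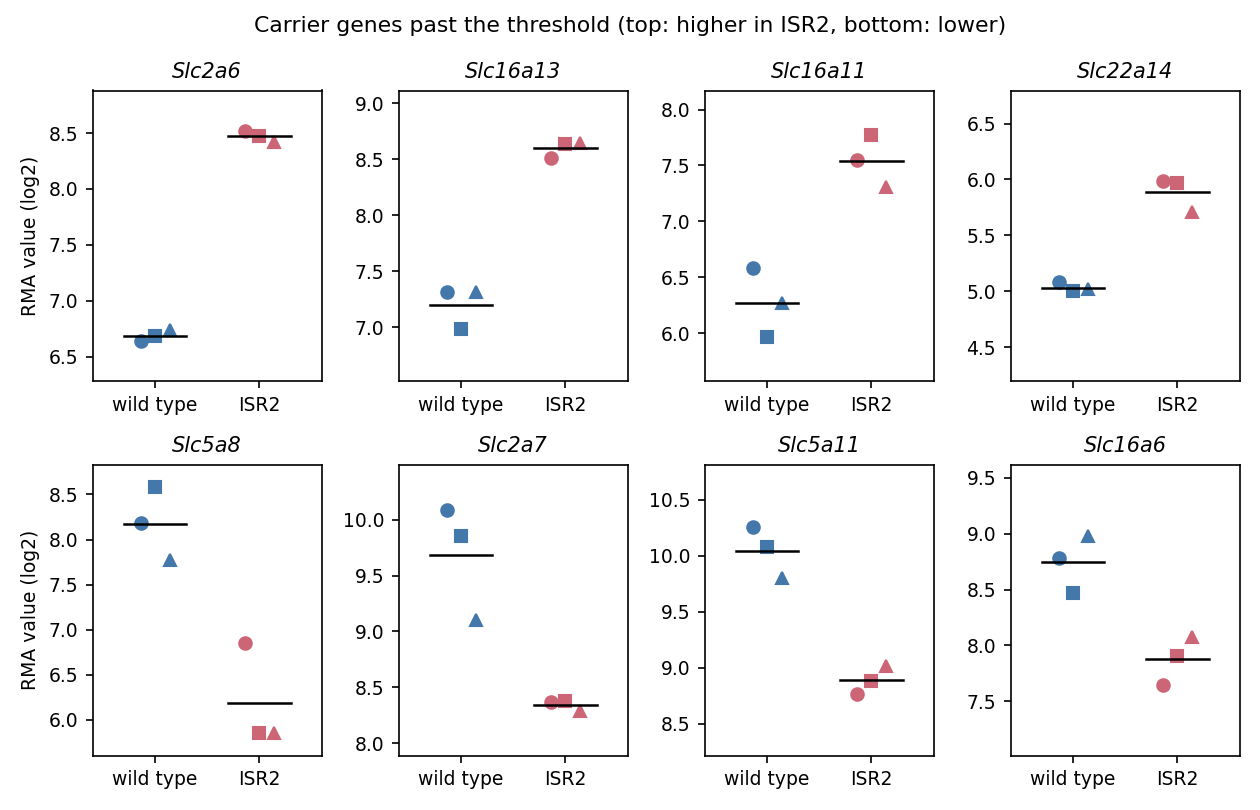
RMA expression values (log2) of the 8 carriers that passed, by array: wild type in blue, ISR2 in red, with circles, squares and triangles for replicates 1, 2 and 3 and a bar at the mean. The axes do not start at 0. In each of the 8 panels all ISR2 arrays lie on 1 side of all wild type arrays, and Slc5a8 and Slc2a7 have the widest spread within a group.

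Of 8 sodium-coupled carriers of sugars and inositol, 1 fell and none rose. Slc5a11 encodes SMIT2, which takes up myo-inositol with sodium. It read 10.26, 10.08 and 9.80 in wild type and 8.77, 8.88 and 9.02 in ISR2, with no overlap. The fall was 2.22-fold (log2 -1.15 ± 0.15, SE; adjusted p = 0.0032), and the gene passed without each array in turn (adjusted p up to 0.0269). Slc5a3, which encodes the other inositol carrier SMIT1, differed by 0.30 in the opposite direction (interval -0.05 to 0.66) and did not pass.

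Slc5a1, which encodes SGLT1, read 12.73, 12.86 and 12.64 in wild type and 12.60, 12.82 and 12.72 in ISR2. The arrays of both groups interleaved. The difference of -0.03 had a 95% interval of -0.31 to 0.26, and the difference was 0.02 after median centring. The SGLT3 genes, whose products are held to sense glucose, also overlapped. Slc5a4a differed by -0.34 (interval -0.75 to 0.07) and Slc5a4b by 0.10 (interval -0.44 to 0.64), with the sign of the latter turning with array weights. Slc5a9, the mannose carrier SGLT4, was at -0.38 ± 0.17 (SE; adjusted p = 0.379), and its ISR2 arrays, from 8.35 to 8.57, reached just into the wild type range of 8.52 to 9.14.

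Of the 5 sodium-coupled carriers of vitamins, monocarboxylates, iodide and choline, 1 fell and none rose. The fall was that of Slc5a8, which encodes SMCT1, a sodium-coupled uptake carrier of lactate, short-chain fatty acids and nicotinate. Wild type arrays read 8.18, 8.58 and 7.77 and ISR2 arrays 6.85, 5.85 and 5.85. ISR2 replicate 1 was higher than the other ISR2 arrays but still below every wild type array. The fall was 3.98-fold (log2 -1.99 ± 0.29, SE; adjusted p = 0.00591), the largest among the carriers, and it ranged from -2.33 to -1.79 with 1 array left out.

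Slc5a12, which encodes the related low-affinity carrier SMCT2, was also lower in each ISR2 array, but did not pass. It read 10.78, 11.29 and 10.21 in wild type and 9.54, 9.98 and 9.54 in ISR2. The difference was -1.08 ± 0.26 (moderated SE, n = 3 per group), with an adjusted p of 0.066. Without wild type replicate 3, the lowest of the wild type arrays, it was -1.35 and passed (adjusted p = 0.0117), and it also passed with array weights. Slc5a6, the biotin and pantothenate carrier SMVT, overlapped between groups (6.94 to 7.26 in wild type, 6.70 to 7.26 in ISR2), with a difference of -0.15 and an interval of -0.53 to 0.23. Slc5a5, the iodide carrier, was higher in each ISR2 array by a mean of 0.32 without passing (adjusted p = 0.321).

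None of the 5 Slc13a carriers passed, and the differences furthest from 0 had opposite signs. Slc13a2 encodes NaDC1, the brush border carrier of citrate and succinate. It read 11.24, 11.56 and 10.39 in wild type and 10.23, 10.72 and 9.90 in ISR2, so that wild type replicate 3 lay within the ISR2 range. The difference was -0.78 ± 0.30 (SE; adjusted p = 0.301). Slc13a1, the sulphate carrier NaS1, read 10.33, 10.31 and 8.94 in wild type and 10.24, 11.19 and 10.79 in ISR2. Here too wild type replicate 3 stood apart, and the difference of 0.88 ± 0.37 (SE) was 0.42 without it. The other three, Slc13a3, Slc13a4 and Slc13a5, lay between -0.14 and 0.06.

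The MCT family held 2 rises and 1 fall among 13 genes. Slc16a13 and Slc16a11, which encode the less studied MCT13 and MCT11, rose together. Slc16a13 read 7.31, 6.98 and 7.31 in wild type and 8.51, 8.64 and 8.65 in ISR2. The rise was 2.64-fold (log2 1.40 ± 0.14, SE; adjusted p = 0.000591). Slc16a11 read 6.58, 5.97 and 6.27 in wild type and 7.55, 7.77 and 7.31 in ISR2. The rise was 2.41-fold (1.27 ± 0.18, SE; adjusted p = 0.0054). Neither gene overlapped between groups, and both passed without each array in turn (adjusted p up to 0.00519 and 0.0373). The genes are direct neighbours on chromosome 11, with no other protein-coding gene between them in RefSeq.

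Slc16a6, which encodes MCT7, a carrier linked to ketone body export from the liver, fell. It read 8.78, 8.47 and 8.98 in wild type and 7.65, 7.91 and 8.08 in ISR2, without overlap. The fall was 1.82-fold (log2 -0.87 ± 0.17, SE; adjusted p = 0.0283). The call was lost without wild type replicate 1 or 3, without ISR2 replicate 1 or 2, after median centring (adjusted p = 0.0625) and with every row tested, with adjusted p up to 0.141. Slc16a5, which encodes the drug-carrying MCT6, missed the threshold: its wild type arrays read 10.69, 10.57 and 10.21 and its ISR2 arrays 9.77, 9.94 and 9.79. The difference was -0.66 ± 0.15 (SE; adjusted p = 0.0581), and it passed with an intensity trend, with array weights or without wild type replicate 3.

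The better known MCT genes did not pass. Slc16a1, the lactate and butyrate carrier MCT1, read 8.30, 8.73 and 9.07 in wild type and 9.20, 8.85 and 9.05 in ISR2. The groups overlapped through wild type replicate 3, and the difference of 0.33 had an interval of -0.12 to 0.78. Slc16a3, the lactate exporter MCT4, was at -0.27 (interval -0.62 to 0.08), and Slc16a10, the aromatic amino acid carrier TAT1, at -0.17 (interval -0.48 to 0.13). Slc16a4, Slc16a7, Slc16a8, Slc16a9, Slc16a12 and Slc16a14 lay between -0.29 and -0.05.

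**Figure D3:**
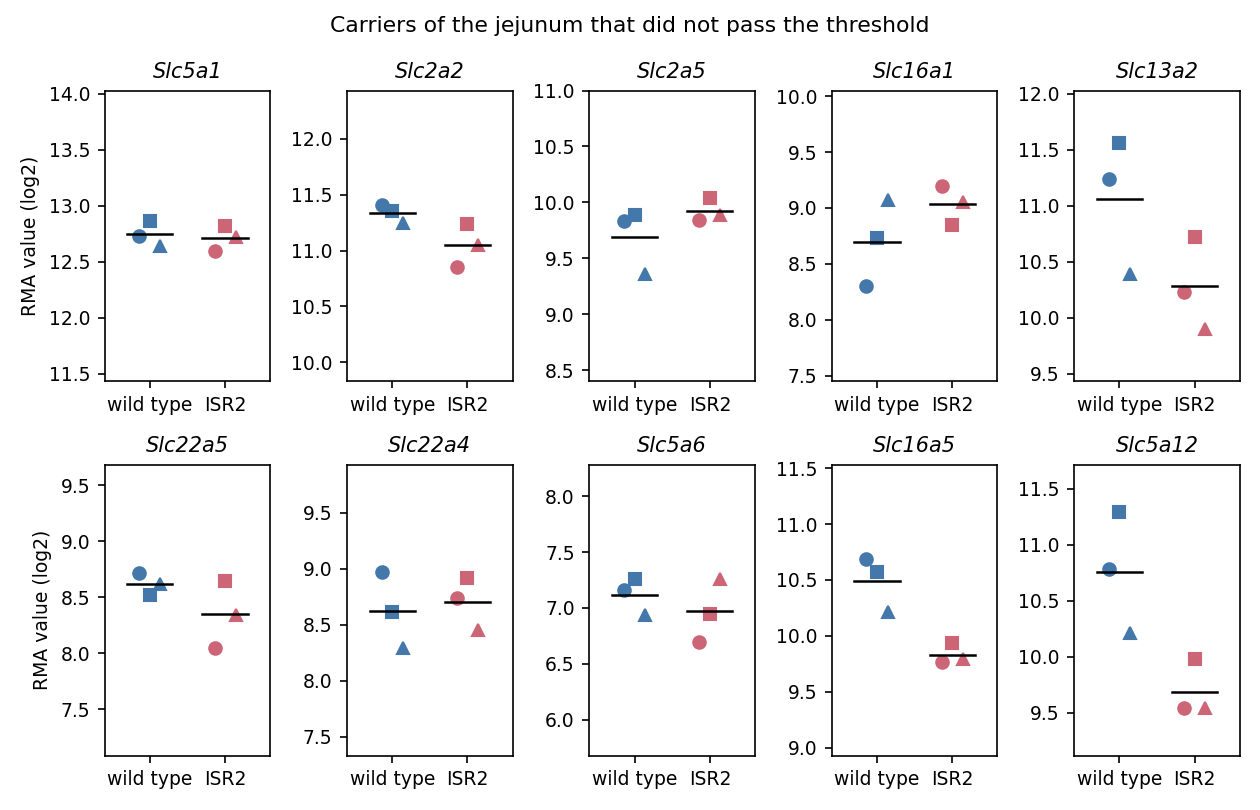
RMA expression values (log2) by array of 8 well known jejunal carriers and of Slc16a5 and Slc5a12, none of which passed; colours, symbols and bars are wild type in blue, ISR2 in red, circles, squares and triangles for replicates 1, 2 and 3, and the mean. The axes do not start at 0. Slc5a1 spans 12.60 to 12.86 over all 6 arrays, while Slc13a2 and Slc5a12 spread by more than 1 log2 unit among wild type arrays.

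No carrier of organic cations or carnitine passed among 5 measured. Slc22a5 encodes OCTN2, the high-affinity carnitine carrier, and read 8.72, 8.52 and 8.62 in wild type and 8.05, 8.65 and 8.34 in ISR2. The groups overlapped, and the difference of -0.27 had an interval of -0.65 to 0.10. Slc22a4, the ergothioneine carrier OCTN1, read 8.97, 8.61 and 8.29 in wild type and 8.74, 8.92 and 8.45 in ISR2. Its difference was 0.08 (interval -0.36 to 0.52) and was negative without wild type replicate 3 or ISR2 replicate 2. Slc22a21, the third gene of this cluster, was at 0.14 and Slc22a2, the cation carrier OCT2 of the kidney, at -0.19.

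Among 18 organic anion and related carriers 1 rose and none fell. Slc22a14, a family member best known from sperm, read 5.08, 5.0 and 5.02 in wild type and 5.99, 5.97 and 5.71 in ISR2. The wild type arrays were nearly equal and lay below the lower quartile of all genes, 5.20, so that expression in wild type mucosa is not shown. The measured log2 values rose by 0.86 ± 0.13 (SE; adjusted p = 0.00618) and passed without each array in turn; with no level shown in wild type, this is a difference of array values and not a fold change of the transcript. Slc22a23, a member without a settled substrate, was higher in each ISR2 array (9.41, 9.48 and 9.46, against 9.17, 8.93 and 9.07), but the difference of 0.40 ± 0.12 (SE) did not pass (adjusted p = 0.172). Slc22a18 overlapped closely, at 9.45 to 9.70 in wild type and 9.45 to 9.64 in ISR2. The kidney anion carriers Slc22a6 and Slc22a8 were at -0.28 and -0.24, and Slc22a13b, annotated as a transcribed pseudogene in RefSeq, at -0.30. Slc22a19, Slc22a22, Slc22a26, Slc22a27, Slc22a29 and Slc22a30, a set of close relatives whose transcripts may share probes, had means below the lower quartile, and none of them passed. In all, 55 of the 66 carriers had a mean over all arrays at or above that quartile. Slc22a14 was among them only through its ISR2 arrays.

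Genes of functions related to these carriers were taken from lists. Of 15 measured scaffold, sodium gradient and transcription factor genes, 1 rose and 1 fell. Pdzk1ip1 encodes MAP17, a small membrane protein that binds the scaffold PDZK1 and acts as a partner of the sodium-glucose carrier SGLT2. It read 6.74, 6.56 and 7.17 in wild type and 9.72, 9.84 and 9.03 in ISR2. The rise was 6.53-fold (log2 2.71 ± 0.23, SE; adjusted p = 0.000265), larger in size than that of any of the 66 carriers. Pdzk1 itself, the scaffold of several brush border carriers, went the other way, from 9.82, 9.52 and 9.80 in wild type to 8.80, 8.91 and 8.93 in ISR2. The fall was 1.78-fold (-0.83 ± 0.13, SE; adjusted p = 0.00887), and leaving out either wild type replicate 1 or ISR2 replicate 1 ended the call (adjusted p up to 0.0604). Atp1b1, a subunit of the sodium pump, was at 0.00 (interval -0.26 to 0.26), and Hnf4a, a transcription factor of enterocytes, at 0.15.

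Of 19 genes of sugar digestion, sensing and first metabolism 1 rose and 2 fell. Slc37a4, which carries glucose 6-phosphate into the endoplasmic reticulum, rose from 9.52, 9.39 and 9.49 to 10.27, 10.37 and 10.28, or 1.79-fold (adjusted p = 0.00431). G6pc, the phosphatase that acts on that substrate there, fell from 9.13, 8.51 and 9.17 to 7.94, 8.16 and 7.68, or 2.02-fold (adjusted p = 0.0325). The call of G6pc was lost in 4 of the 6 fits that left out 1 array, those without replicate 1 or 3 of either group, and with every row tested (adjusted p up to 0.157). Treh, the brush border enzyme that splits trehalose, fell by 0.82 ± 0.13 (SE), a call that ended when replicate 1 of either group was left out (adjusted p up to 0.0582). Sucrase-isomaltase (Sis) was at 0.14 and ketohexokinase (Khk), the first step of fructose use, at -0.14, and neither passed.

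**Figure D4:**
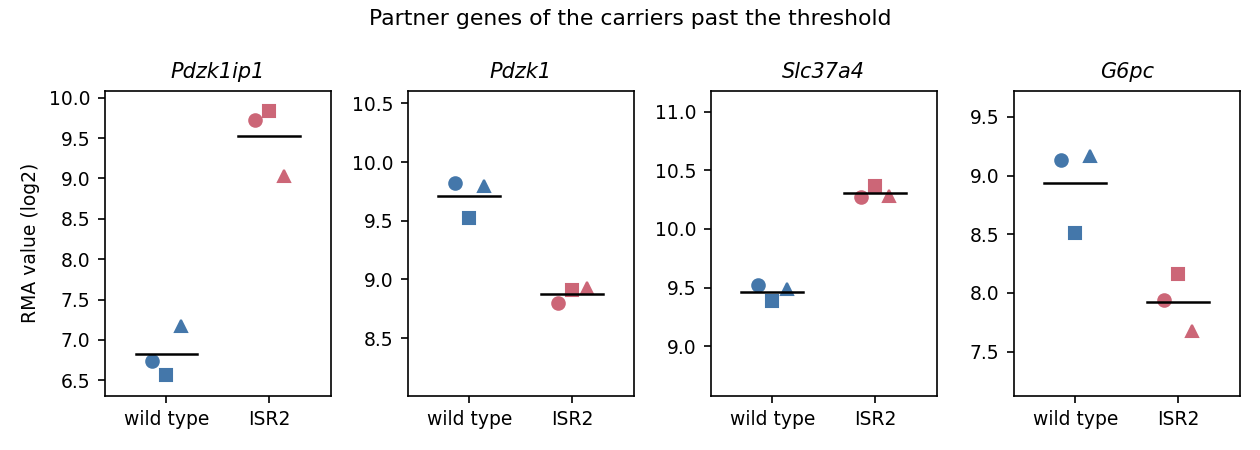
RMA expression values (log2) by array of 4 partner genes that passed, with wild type in blue, ISR2 in red, circles, squares and triangles for replicates 1, 2 and 3 and a bar at the mean; the axes do not start at 0. Pdzk1ip1 and Slc37a4 are higher in all ISR2 arrays, and Pdzk1 and G6pc are lower in all of them.

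Some genes on the lists of citrate and carnitine metabolism passed. Of 12 citrate and dicarboxylate genes 4 rose and none fell. Slc25a1, which exports citrate from mitochondria, read 11.09, 10.75 and 10.91 in wild type and 12.54, 12.64 and 12.58 in ISR2, a 3.18-fold rise (adjusted p = 0.000136). Acly, which splits citrate to acetyl-CoA, rose by 3.38 and Me1, the malic enzyme, by 3.22 on the log2 scale, and Idh1, the cytosolic isocitrate dehydrogenase, rose 1.93-fold. Of 9 genes listed with carnitine synthesis and use 2 rose, Acaca by 2.86 and Acacb by 1.04. Both encode acetyl-CoA carboxylases, which neither make nor use carnitine but make the malonyl-CoA that blocks carnitine-dependent fatty acid import. None of the 7 genes that make, carry or use carnitine passed: they ran from Bbox1, the last enzyme of carnitine synthesis, at -0.48 to Slc25a20, the mitochondrial carnitine carrier, at 0.41, with Cpt1a, the enzyme blocked by malonyl-CoA, at 0.38.

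Of 8 genes of biotin and pantothenate use 2 rose and 1 fell. Pank1 and Pank3, kinases that start coenzyme A synthesis from pantothenate, rose 7.80-fold and 2.19-fold (adjusted p = 0.000136 and 0.00426). Mccc1, a subunit of a biotin-dependent carboxylase, fell 1.65-fold (adjusted p = 0.0344), a call lost in 5 of the 6 fits without 1 array, after median centring and with every row tested (adjusted p up to 0.156). Of 10 genes of lactate, pyruvate and ketone body metabolism 1 rose: Bdh1, the beta-hydroxybutyrate dehydrogenase, at 1.77-fold (adjusted p = 0.0397), a call lost with every row tested and in 4 of the 6 fits that left out 1 array, namely replicate 1 or 2 of wild type and 1 or 3 of ISR2 (adjusted p up to 0.187). Bsg, the chaperone that brings MCT1 and MCT4 to the membrane, was at -0.42 and did not pass (adjusted p = 0.176). Of 13 genes on a list of drug and anion exporters, which also holds Slco carriers, 1 rose and 1 fell. Abcc3, a basolateral exporter of organic anions, rose 1.99-fold, and Slco2a1, a prostaglandin carrier, fell from 9.49, 9.24 and 9.22 to 8.50, 8.34 and 8.41, or 1.86-fold (adjusted p = 0.00558). In these 7 lists 10.0% to 37.5% of the measured genes passed, against 3.02% of all genes. Some of these genes are textbook parts of SREBP-driven lipid synthesis, and the lists were drawn up with earlier results of these data known.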

How the data were processed

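Total RNA from jejunal mucosa was labelled by the Affymetrix whole-transcript protocol, per the labels' protocols. The authors deposited log2 values from RMA, as the submitters' processing notes say. Its version, filters and genome build were not given in the sources used here. RMA equalises arrays, so differences are relative to the bulk of genes.

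The table held 35556 rows, of which 21789 had 1 symbol, 1621 several and 12146 none. Where a gene had several rows, the brightest row on average was kept, which left 19938 genes. No filter on dim genes was applied. All 66 carriers matched the RefSeq gene table (GRCm38.p6) by Entrez ID. That table served for names and neighbouring genes.

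Groups came from the titles. ISR2 was compared with wild type with limma 3.58.1 (lmFit, eBayes; R 4.3.3) over all 6 arrays without covariates, two-sided, adjusted over all genes; the steps were tested on simulated data. Alternatives were array weights, an intensity trend, robust moderation, quantile normalization, median centring, averaged probe sets, every row tested, a filter at the lower quartile of gene means, an adjusted p of 0.10, the replicate number as a block and each array left out. Python 3.11.15 with matplotlib 3.10.9 drew the plots.

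The carriers and lists were chosen with earlier results of these data known. Named by rule were the carriers that passed, 8 well known jejunal carriers, the member with the smallest p of each of 7 roles, up to 12 separated carriers with a difference of at least 0.5, and up to 4 called genes of each list. Other carriers were named after their values were seen. Some listed carriers are not reported here.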

Additional observations from a re-analysis of the deposited data

How the results depend on the processing

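The calls of Slc2a6, Slc16a13, Slc16a11, Slc22a14, Slc5a11 and Slc5a8 held under every alternative tried. The filter on dim genes used the mean over all 6 arrays, with a cut at 5.20. Slc22a14, with a wild type mean of 5.03, passed that filter only through its ISR2 arrays, so this setting adds nothing for its call. Slc2a7 and Slc16a6 lost theirs with every row tested and in 4 of the 6 fits without 1 array, Slc16a6 also after median centring. With array weights 7 carriers fell and 1268 genes passed in all. With all rows tested 2 carriers fell. Leaving out 1 array gave 2 to 5 falls, 4 rises, 335 to 589 genes in all and a carrier median of -0.15 to -0.07. In all, 345 genes passed when replicate 1 of wild type was left out, 388 when replicate 2 was, and 335 when replicate 1 of ISR2 was. It was 589 genes when replicate 2 of ISR2 was left out, and 602 in the main fit. Each fit without 1 array has fewer samples than the main fit, and the cause of these differences was not tested.

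Same-numbered arrays of the groups did not all deviate together (r = -0.02, 0.32 and 0.54 across genes), so the main fit did not treat them as pairs. Whether samples of the same number share a handling step was not tested. With the replicate block in limma 7 carriers fell and 778 genes passed in all. The added falls were Slc16a5, Slc5a12 and Slc13a2, with adjusted p of 0.0388, 0.00657 and 0.0206. Wild type arrays 2 and 3, but not 1, correlated best with the ISR2 array of the same number.

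Small differences changed sign. After median centring Slc5a1 was at 0.02 and Slc22a18 at 0.00, and with array weights Slc5a4b was at -0.25. Without 1 array at a time Slc5a1 ranged from -0.08 to 0.03, Slc22a4 from -0.09 to 0.26, Slc2a1 from -0.09 to 0.19, Slc2a4 from -0.71 to 0.35, Slc5a4b from -0.11 to 0.35 and Slc22a18 from -0.11 to 0.01. In single fits, Slc5a1 was at 0.03 without wild type replicate 2 or ISR2 replicate 1, Slc22a4 at -0.02 without ISR2 replicate 2, Slc2a1 at -0.03 and -0.02, Slc5a4b at -0.04 and Slc22a18 at 0.01. The deposited values carry no detection call, so levels of dim carriers are uncertain.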

Other observations

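Carriers that lie side by side in the genome did not always differ alike. In RefSeq, 11 pairs of measured carriers have no other protein-coding gene between them. In 1 pair, Slc16a11 and Slc16a13, both genes rose. In 2 pairs only 1 gene passed. Slc2a7 fell (-1.33) while its neighbour Slc2a5, the fructose carrier gene, was at 0.23, and Slc22a14 rose (0.86) while its neighbour Slc22a13 was at -0.23. The difference between neighbours was not tested. In the other pairs neither gene passed.

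Slc2a4, which encodes the insulin-responsive GLUT4 of muscle and fat, had the widest interval of the carriers (-1.43 to 0.92 around a difference of -0.25). It read 5.99, 7.98 and 6.39 in wild type and 6.09, 7.45 and 6.06 in ISR2, highest in replicate 2 of each group. The mean of 8 smooth muscle and stroma markers was 7.38, 9.59 and 7.90 in wild type and 8.15, 9.04 and 8.08 in ISR2, and was also highest in these replicates. In wild type every marker of this list was highest in replicate 2. In ISR2 only Acta2, Myh11, Des and Tagln were, while Col1a1, Col1a2 and Col3a1 were lowest there and Dcn lay between. The part of muscle tissue in the level of Slc2a4 was not tested.

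For 31 of the 66 carriers wild type replicate 3 was the lowest wild type array, and for 3 of the 4 carriers that fell. The same count was not made over all genes, so this cannot be called particular to the carriers. A row of the table shared by Slc22a28, Slc22a29 and Slc22a30 differed by 0.21, and the other row of Slc16a9 by -0.23, against -0.24 for the row used. Neither passed with all rows tested (adjusted p = 0.833 and 0.721).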
